A study of Nasonia vitripennis with 9 samples.

Results

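The CPR genes encode cuticular proteins that carry the Rebers and Riddiford consensus, a stretch that binds chitin, and they were followed here in whole male *Nasonia vitripennis*, a parasitoid wasp. Every gene whose name in the deposited tables is CPR followed by a number was taken as a member, which gave 35 of 15418 named genes. All 35 were found in RefSeq's gene table for assembly Nvit_psr_1.1. Membership rests on names and used no measured value, although earlier results of these data were known when the family was chosen. Of the 35, 24 passed the filter on low counts (11665 of all genes did) and 11 did not.

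The wasps were of the laboratory strain AsymCX, cured of Wolbachia, and each library was made from a pool of 5 males at the white pupal stage; other label fields call the same material larvae. The 3 groups, each with 3 libraries, were larvae injected in the second instar with dsGFP (a double-stranded RNA made from the coding sequence of a jellyfish fluorescent protein, at 4 µg/µl with a red food dye), larvae given water and dye, and uninjected larvae. Injection was on day 3 after egg laying for both injected groups. Injected animals were collected 5 to 6 days after injection, and no separate collection age is given for uninjected ones. Whether the pools of a group had separate hosts or cultures is not stated, and the p-values speak only of the spread among these pools, some of which may be technical. Gene totals ran from 33885222 to 46080606 counted read pairs per library. Levels are given as CPM, the count per 1e6 counted pairs, scaled by TMM factors. A transcript length was not used, so CPM shows how much of the sequenced RNA a gene took and does not rank genes by transcript number. In whole animals fewer cells of a type and less RNA per cell cannot be told apart.

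Insect cuticle is a layered secretion of the epidermis in which chitin fibres are embedded in protein. At each moult the epidermis lays down a new cuticle beneath the old one, under the control of the steroid 20-hydroxyecdysone, and different CPR genes are known in insects to be switched on at different times of this cycle and in different body regions. The 2 large classes of the consensus, RR-1 and RR-2, are linked mostly to flexible and to rigid cuticle. The files and the gene table do not give the class of each member, so the members are ordered below by level, by how they varied and by their place in the genome.

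A single gene, CPR1, made up most of the family's signal. It was at 7295, 15006 and 3100 CPM in dsGFP 1, 2 and 3, at 6547, 967 and 3442 CPM in water 1, 2 and 3, and at 5188, 3848 and 130 CPM in uninjected 1, 2 and 3. CPR1 held 79.3 to 92.0% of the summed CPM of the 35 members in 8 libraries and 47.5% in uninjected 3. By the mean over the 9 libraries CPR37 and CPR59 came next, although CPR19, CPR49 and CPR35 exceeded both in water 2 and uninjected 3. With them, the 3 genes held 87.2 to 98.3% of the family in 8 libraries and 50.6% in uninjected 3. The whole family took 1.53% of all gene counts in dsGFP 2 and 0.0311% in uninjected 3.

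Most other members were minor. CPR19 ran between 33.5 and 79.0 CPM, CPR49 between 26.1 and 49.8 CPM, and CPR35 between 10.0 and 59.3 CPM. CPR15 and CPR23 averaged 14.3 and 14.4 CPM over the 9 libraries, CPR23 between 5.19 and 29.9 CPM. CPR9 lay between 2.12 and 8.27 CPM and CPR16 between 2.11 and 3.20 CPM. CPR20 reached 1.12 CPM, CPR3 0.527 CPM and CPR18, which had 0 counts in dsGFP 2, 0.368 CPM. The number of members above 1 CPM was 13 in uninjected 3, 14 in water 2 and 16 to 18 in the others.

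The 11 members below the filter were CPR4, CPR5, CPR6, CPR10, CPR39, CPR40, CPR43, CPR45, CPR46, CPR48 and CPR54, and none exceeded 0.485 CPM in any library. CPR48 had 0 counts in every library, and a count of 0 allows up to 3 counts, or 0.0651 to 0.0885 CPM on unscaled totals, for counting error only. CPR43 had 17 counts in water 1, 9 in dsGFP 1, water 3 and uninjected 3, and 0 in dsGFP 3 and water 2. CPR54 had 14 counts in water 1 and 11 in dsGFP 1 and at most 1 elsewhere. CPR39 had 2 counts in each uninjected library and 0 in each injected one, too few to tell the groups apart at this depth. None of these genes entered the fit reported here.

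Summed over the 35 members, the family was at 9003, 17061 and 3376 CPM in dsGFP 1, 2 and 3. The water libraries held 8254, 1142 and 4309 CPM, and the uninjected libraries 5933, 4182 and 274 CPM. Each group thus had a library far below the others, namely dsGFP 3, water 2 and uninjected 3, and the ranges of the groups overlapped. The highest and lowest libraries differed 5.05-fold within dsGFP, 7.23-fold within water and 21.6-fold within uninjected. The group means were 9813 ± 6878 CPM for dsGFP, 4568 ± 3563 CPM for water and 3463 ± 2897 CPM for uninjected (SD, n = 3 each), so the differences between means were of the size of the spread within groups. Single libraries moved these means by over 1.5 times: dsGFP was at 6189 CPM without dsGFP 2, water at 2725 CPM without water 1 and uninjected at 2228 CPM without uninjected 1. With CPR1 left out the sums still ran from 277 to 2056 CPM in dsGFP, 175 to 1707 CPM in water and 144 to 745 CPM in uninjected pools.

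CPR37 and CPR59 followed CPR1 with still larger swings. CPR37 was at 690, 859 and 61.2 CPM in dsGFP 1, 2 and 3, at 508, 16.5 and 394 CPM in water 1, 2 and 3, and at 255, 88.7 and 5.71 CPM in uninjected 1, 2 and 3. CPR59 was at 792, 914 and 53.4 CPM in the dsGFP libraries, at 932, 12.5 and 303 CPM in the water libraries and at 306, 72.6 and 2.82 CPM in the uninjected libraries. Both were lowest in the same 3 libraries as the family sum. CPR59 differed 17.1-fold between the highest and lowest dsGFP pool, 74.3-fold between water pools and 108-fold between uninjected pools. CPR37 differed 14.0-fold, 30.8-fold and 44.8-fold in the same order, and CPR1 4.84-fold, 6.77-fold and 39.8-fold.

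CPR59 lies inside the span of CPR1 in the annotation of Nvit_psr_1.1. Read pairs where the genes overlap could therefore be missing from the counts of both. For CPR59 the count without strand was 4.89% below the sum of the strand-specific columns. This is the share of pairs left out as ambiguous, which may come from either gene of an overlap. CPR59 was not a fixed share of CPR1: it came to 14.2% of the CPR1 CPM in water 1, 10.9% in dsGFP 1 and 1.30% in water 2.

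CPR15 showed the largest spread of the tested members. It had 24.1, 30.4 and 2.12 CPM in dsGFP 1, 2 and 3, 48.4, 0.879 and 10.2 CPM in water 1, 2 and 3, and 9.30, 3.23 and 0 CPM in uninjected 1, 2 and 3. The uninjected pools differed at least 149-fold if uninjected 3 is set at 3 counts. Its neighbours CPR13 and CPR14 were highest in water 1, at 23.8 and 17.7 CPM, and were at 0.799 and 0.346 CPM in water 2. In the uninjected libraries CPR13 was at 2.44, 2.12 and 0.332 CPM. CPR14 was there at 0.552, 0.218 and 0.0623 CPM, the last from 3 counts. CPR7 had 9.27 CPM in water 1 and 0.104 CPM in uninjected 3, and CPR8 had 8.27 CPM in dsGFP 2 and 0.0830 CPM in uninjected 3, from 5 and 4 counts.

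**Figure D1:**
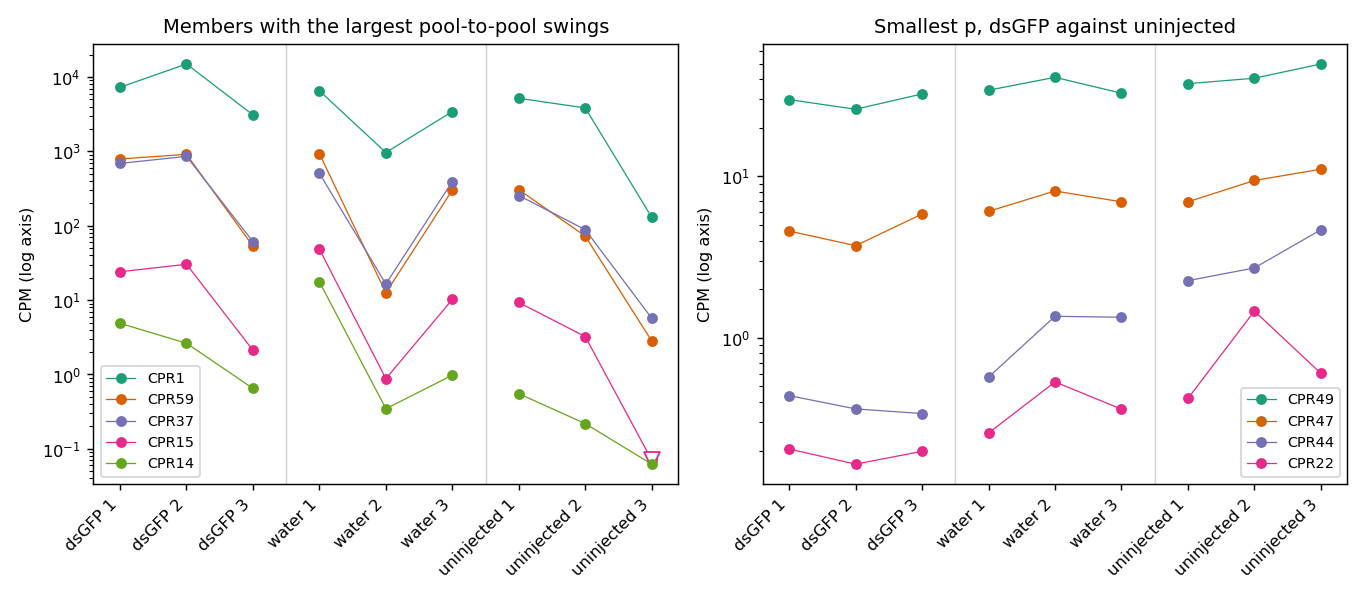
CPM of single CPR members (log axis) in the 9 libraries, with thin lines joining the points of 1 gene within a group and no order among pools. On the left CPR1, CPR37, CPR59, CPR15 and CPR14 dip in dsGFP 3, water 2 and uninjected 3 (the open triangle is CPR15 at 0 counts, drawn at the limit of 3 counts), and on the right CPR44 steps up from dsGFP through water to uninjected pools.

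The spread between pools of a group was summarised per gene as the within-group SD of log2 CPM (prior count 2), pooled over the 3 groups. Over the 24 tested members it ran from 0.18 (CPR49) to 3.07 (CPR15) with a median of 0.73, while the median over all 11665 genes tested was 0.19. The genes were not matched by level, and counting error adds to the SD of members with few counts. CPR3, CPR18 and CPR57, for example, had at most 17, 14 and 29 counts in a library. An SD above 1 was met in 8 of the 24 members (33.3%) and in 2.13% of all genes tested. These 8 were CPR15 (3.07), CPR59 (3.03), CPR37 (2.58), CPR1 (2.00), CPR14 (1.97), CPR13 (1.87), CPR8 (1.68) and CPR7 (1.64). Only 0.171% of all genes tested had an SD as large as that of CPR15, and 0.54% one as large as that of CPR1. At the other end, 51.7% of genes were at least as variable as CPR49, and CPR29 (0.24), CPR16 (0.25) and CPR53 (0.27) also stayed close to the level of their group.

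**Figure D2:**
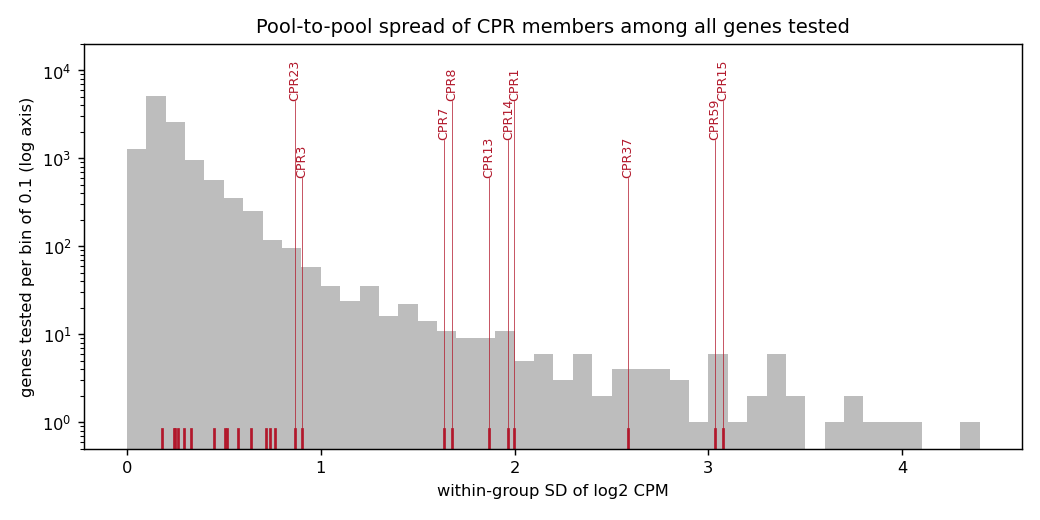
Histogram of the within-group SD of log2 CPM over all genes tested, with the number of genes per bin on a log axis and each tested CPR member as a red tick. The 8 members above 1 lie in the sparse right tail, where 2.13% of all genes fall, and the other members lie among the bulk of genes or on its shoulder.

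The swings were shared. Of the 24 tested members, 14 were lowest in dsGFP 3 among the dsGFP libraries, 16 in water 2 among the water libraries and 15 in uninjected 3 among the uninjected ones; over all genes tested these shares were 29.4%, 26.6% and 42.4%. In 11 members (CPR1, CPR3, CPR7, CPR13, CPR14, CPR15, CPR23, CPR34, CPR35, CPR37 and CPR59) all 3 held at once, which was so for 7.68% of all genes tested. The opposite, highest in all 3 of these libraries, was seen for CPR47 and CPR49, and for 4.03% of all genes. The 3 libraries were picked by the family sum, so these counts describe the family and are no test.

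Members were then grouped by the likeness of their log2 CPM after subtraction of each group's mean, over the 9 libraries (average linkage, tree height 0.5). The groups were built from the values and carry no test. The largest subset held 13 members: CPR1, CPR3, CPR7, CPR8, CPR9, CPR13, CPR14, CPR15, CPR23, CPR34, CPR35, CPR37 and CPR59. Their pairwise Pearson r ran from 0.33 to 0.99 with a median of 0.82, as a description over 9 libraries that all members share. On average they lay 2.03 below the group mean on the log2 scale in uninjected 3, 1.61 below it in water 2 and 1.30 below it in dsGFP 3. CPR34, CPR35 and CPR23 were lowest in the same 3 libraries with an SD under 1, CPR34 at 9.90, 14.2 and 6.72 CPM in dsGFP 1, 2 and 3, at 10.1, 4.98 and 9.30 CPM in the water libraries and at 7.70, 7.19 and 6.87 CPM in the uninjected ones, which differed only 1.12-fold.

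Most of the subset also lay together in the genome. In Nvit_psr_1.1, 13 members (CPR1, CPR59, CPR3 to CPR10 and CPR13 to CPR15) form a run on a single chromosome with at most 3 other annotated genes between one member and the next. All 9 tested members of that run fell in the largest subset. The other 4 of the subset lie elsewhere: CPR23 farther along the same chromosome, and CPR34, CPR35 and CPR37 on other chromosomes. Of the 7 tested members on the chromosome that carries CPR44 and CPR47, 0 joined it. Nearness did not fix the level: CPR4, CPR5, CPR6 and CPR10 sit between CPR3 and CPR13 in the run and none passed 0.296 CPM, whereas CPR1 at its end reached 15006 CPM.

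A subset of 4 members, CPR44, CPR47, CPR49 and CPR57, ran on average against the largest one in uninjected 3 and water 2. In water 2 CPR57 itself lay below its group mean (-0.10). Their mean deviation was 0.49 above the group mean on the log2 scale in uninjected 3, 0.18 above it in water 2 and 0.07 above it in dsGFP 3, where CPR44 and CPR57 lay below their group mean (-0.14 and -0.06). In dsGFP 1 both subsets lay above it, by 0.17 and 0.48. CPR49 was at 29.9, 26.1 and 32.5 CPM in dsGFP 1, 2 and 3, at 34.2, 41.1 and 32.8 CPM in the water libraries and at 37.6, 40.6 and 49.8 CPM in the uninjected libraries. In each group it was highest in the library poorest in CPR1, although the dsGFP pools differed only 1.24-fold. CPR57 was low, at 0.131, 0.350 and 0.602 CPM in uninjected 1, 2 and 3, and the count without strand was 50.5% below the sum of its strand-specific columns, pairs in an overlap with a gene on the other strand that may come from either gene. Against the mean of all other tested members, r was lowest for CPR49 (-0.90), CPR47 (-0.88), CPR44 (-0.74), CPR57 (-0.57), CPR29 (-0.34) and CPR22 (-0.30).

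**Figure D3:**
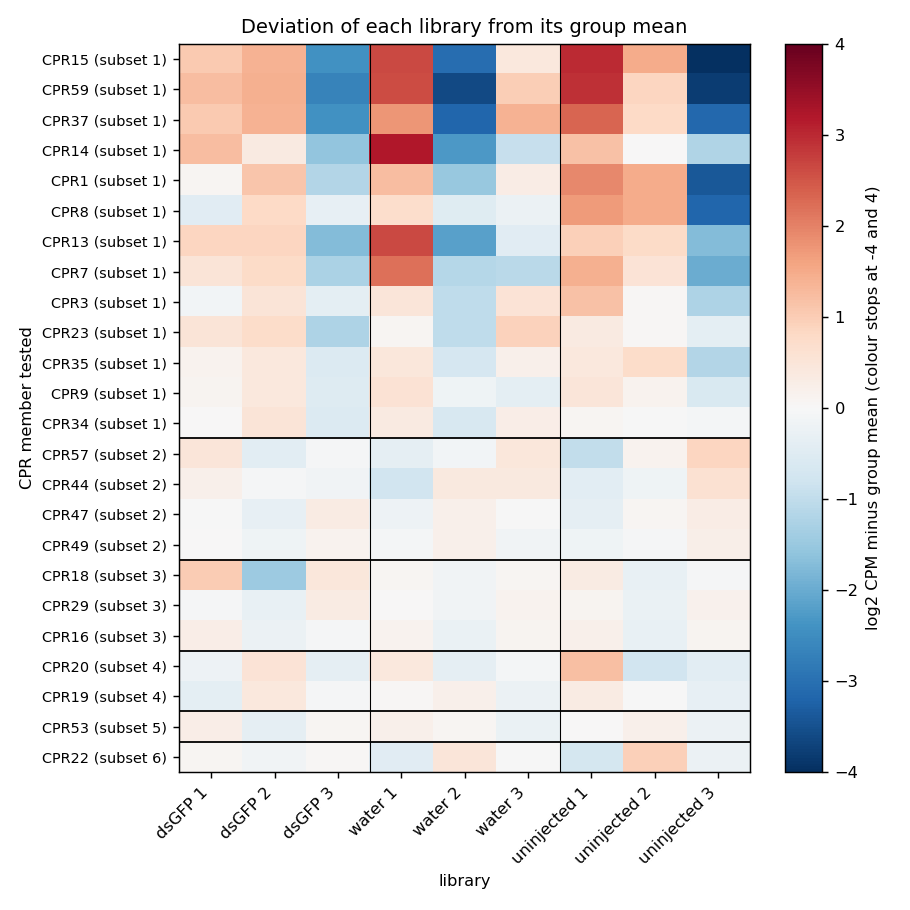
Colour map of log2 CPM minus the mean of the library's own group for the 24 tested members (rows, ordered by subset) in the 9 libraries (columns). The 13 members of subset 1 lie below their group mean in dsGFP 3, water 2 and uninjected 3. Most are blue there, but some are near white, such as CPR34 in uninjected 3 (-0.08) and CPR9 in water 2 (-0.17). The 4 members of subset 2 are near white or red in these libraries.

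The remaining members showed other patterns. CPR16, CPR18 and CPR29 formed a subset that was lowest on average in dsGFP 2, where the family sum was highest. That average leaned on CPR18, with 0 counts there and a deviation of -1.44 from its group mean on the log2 scale. CPR16 and CPR29 deviated by -0.23 and -0.30 in dsGFP 2, and CPR16 lay further below its group mean in uninjected 2 (-0.30). CPR29 was at 0.642, 0.527 and 0.847 CPM in dsGFP 1, 2 and 3, at 0.656, 0.586 and 0.722 CPM in the water libraries and at 0.841, 0.634 and 0.872 CPM in the uninjected libraries. CPR19 and CPR20, next to each other in the genome, formed another subset (r = 0.61), with CPR19 at 44.8, 79.0 and 57.4 CPM in the dsGFP libraries. In water 2 they parted, with deviations of 0.19 for CPR19 and -0.36 for CPR20. CPR18, on the other side of CPR19, was not in this subset. CPR53 and CPR22 stood alone.

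The summed level of other genes of cuticle and chitin was lowest in the same libraries. A list of 17 such genes, matched by symbol, had 16 tested members, and its summed level was 16415, 23384 and 2709 CPM in dsGFP 1, 2 and 3, 15329, 1339 and 9296 CPM in water 1, 2 and 3 and 7241, 3568 and 671 CPM in uninjected 1, 2 and 3. Of the 16, 8 were lowest in dsGFP 3, water 2 and uninjected 3 at once (7.68% of all genes). The within-group SD was above 1 for 6 (CPLCP1, CPLCP2, CPLCP3, Osi7, Osi8 and apd-1), of which CPLCP1 and CPLCP2 were lowest in all 3 of these libraries, while Osi7, Osi8 and apd-1 were higher in uninjected 2 than in any other library. Cuticular proteins of the CPLCP family led the sum, with CPLCP2 at 14603 CPM in dsGFP 2 and 15.8 CPM in uninjected 3. CPLCP1 was at 6549 and 9.05 CPM in the same libraries. The analogous-to-peritrophin gene Cpap3-a2, another chitin-binding cuticular protein, was at 707 CPM in dsGFP 2 and 64.6 CPM in uninjected 3. Cht5, a chitinase that degrades old cuticle, varied less, from 308 to 495 CPM over all libraries. None of the 16 passed the test in any comparison.

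Lists for other tissues had 0 tested members with a within-group SD above 1, but some moved between the groups. The summed level of 17 nervous system genes was 221 to 286 CPM in dsGFP, 282 to 325 CPM in water and 301 to 394 CPM in uninjected pools. That of 64 genes of respiration was 7914 to 8544 CPM in dsGFP, 8381 to 8836 CPM in water and 8689 to 9916 CPM in uninjected pools. For both lists dsGFP and uninjected pools did not overlap, and the fitted log2 fold change between them was above 0 for 2 of 16 and 2 of 64 tested genes, with medians of -0.37 and -0.15 against 0.01 for all genes. Of 3 muscle genes, the tropomyosin gene Tm1 held most of the sum, at 686 to 898 CPM over the 9 libraries. Tm2, another tropomyosin gene, ran from 14.0 to 67.8 CPM and was highest within each group in dsGFP 3 (30.7 CPM), water 2 (44.5 CPM) and uninjected 3 (67.8 CPM). Zasp66, a muscle gene of the Z-disc, was at 5.73 to 8.47 CPM in dsGFP, 7.52 to 9.55 CPM in water and 13.5 to 26.5 CPM in uninjected pools.

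For the storage proteins of the fat body the summed level of 3 hexamerin genes was highest within each group in dsGFP 3, water 2 and uninjected 3, at 3088, 4231 and 4451 CPM, the libraries where the CPR sum was lowest. Hex70b carried this sum, at 3053, 4213 and 4439 CPM there, and was the 1 gene of the 3 to be highest in all of them. Of the 4 moulting hormone genes matched, the ecdysone receptor gene Ecr was at 160 CPM in uninjected 3 and 268 to 431 CPM in the others. CYP314A1, which makes 20-hydroxyecdysone, was at 24.5 to 32.1 CPM in dsGFP, 30.9 to 44.2 CPM in water and 46.5 to 112 CPM in uninjected pools, and fell between dsGFP and uninjected pupae by 1.45 on the log2 scale (SE 0.30, edgeR adjusted p = 0.0332). The other 3 lay above 0 in that comparison and did not pass, with log2 fold changes of 0.51 for Ecr, 0.76 for Burs, which encodes a subunit of the hormone bursicon, and 0.76 for Eth, which encodes ecdysis triggering hormone. Between dsGFP and uninjected pupae edgeR called 1 of 3 muscle, 1 of 16 nervous system, 2 of 64 respiration and 1 of 4 moulting hormone genes, all lower with dsGFP, where 4.11% of all genes fell, and 0 of 3 hexamerin genes. The part of these genes in the CPR values was not tested.

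**Figure D4:**
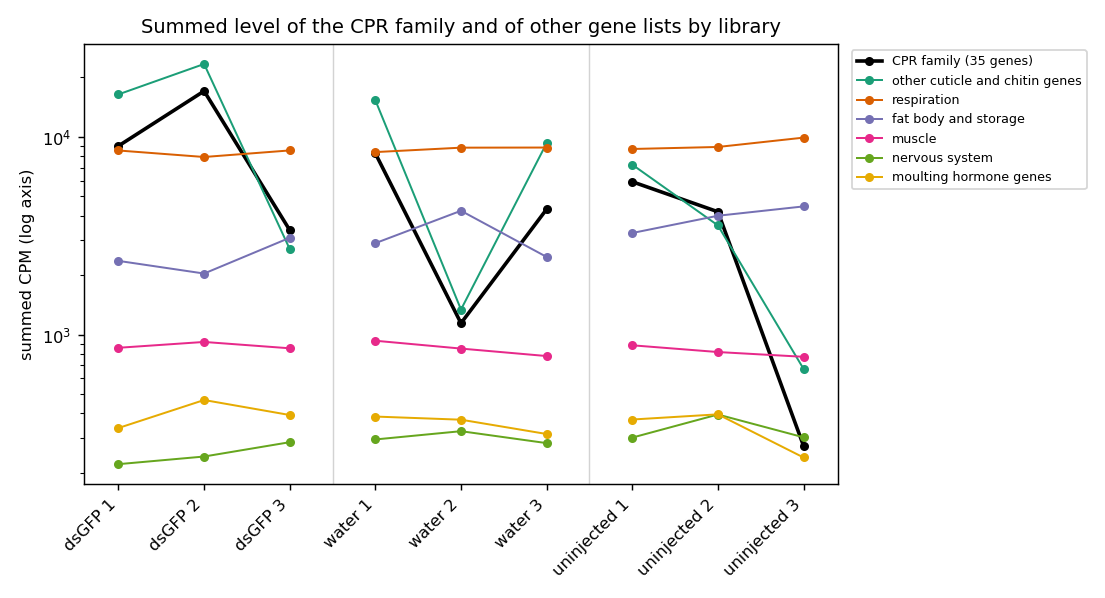
Summed CPM (log axis) of the 35 CPR genes and of 6 other gene lists in the 9 libraries, with lines joining the pools of a group. The CPR sum and the other cuticle and chitin genes drop together in dsGFP 3, water 2 and uninjected 3, whereas the sum for respiration stays within 7914 to 9916 CPM and that for muscle, mostly Tm1, within 772 to 931 CPM.

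Between dsGFP-injected and uninjected pupae 3 members fell and 0 rose by edgeR's quasi-likelihood test (adjusted p under 0.05 over all genes), CPR44, CPR47 and CPR22. Of all genes tested 4.11% fell and 0.437% rose in this comparison. DESeq2 also called 0 rises, and 6 of the 24 members had an unadjusted p under 0.05 (18.7% of all genes), CPR9 among them at a log2 fold change of 0.86 (SE 0.36, edgeR adjusted p = 0.240). By fitted fold change 15 members were above 0 and 9 below it, with a median of 0.70 on the log2 scale, against 0.01 for all genes. All 13 members of the largest subset were among those above 0. They swung together over the same libraries, so the count and the median do not rest on separate observations. The members that fell were not those with the highest CPM. The sums of the nervous system and respiration lists, given above, were also lower with dsGFP, and their part in these falls was not tested.

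CPR44 had the lowest p of the family. It was at 0.438, 0.362 and 0.339 CPM in dsGFP 1, 2 and 3, at 0.570, 1.36 and 1.34 CPM in water 1, 2 and 3, and at 2.26, 2.71 and 4.67 CPM in uninjected 1, 2 and 3. The groups did not overlap in either step, with every dsGFP library below every water library and every water library below every uninjected one. It was the 1 member of 24 with this order, which 2.19% of all genes tested showed. Between dsGFP and uninjected pupae it fell by 3.07 on the log2 scale (SE 0.40, edgeR adjusted p = 0.00871), and the F test for any difference among the 3 groups passed for CPR44 (edgeR adjusted p = 0.0290) and for no other member, as for 2.04% of all genes. That F test called 0 members when dsGFP 1, dsGFP 2, dsGFP 3, water 2, water 3, uninjected 2 or uninjected 3 was left out. In each of these settings it called 0 or 1 of all genes tested, against 238 with all 9 libraries. Counts were 11 to 15 in each dsGFP library and 86 to 225 in each uninjected library. Its neighbours CPR43 and CPR45 were among the members below the filter.

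CPR47 fell from 6.96, 9.44 and 11.1 CPM in uninjected 1, 2 and 3 to 4.59, 3.72 and 5.85 CPM in dsGFP 1, 2 and 3, a log2 fold change of -0.96 (SE 0.22, edgeR adjusted p = 0.0296). The water libraries lay between, at 6.07, 8.12 and 6.96 CPM, and overlapped the uninjected ones. Its count without strand was 14.6% below the sum of the strand-specific columns. CPR22 fell from 0.420, 1.46 and 0.602 CPM to 0.204, 0.165 and 0.198 CPM, a log2 fold change of -2.12 (SE 0.52, edgeR adjusted p = 0.0428). It rested on 5 to 7 counts per dsGFP library, none of which reached the filter's 0.271 CPM, and the highest uninjected library was 3.48 times the lowest. The water libraries held 0.257, 0.533 and 0.361 CPM.

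CPR44 passed in all 15 other settings tried, with log2 fold changes of -3.27 to -2.62. Over all genes these settings called 134 to 939, against 531 as reported. CPR47 lost the call in 6 of them. For it the edgeR adjusted p was 0.113 without dsGFP 1, 0.118 without dsGFP 2, 0.0521 without water 3, 0.0788 without uninjected 2 and 0.0958 without uninjected 3. CPR22 lost the call in 10, among them each single library left out other than uninjected 1, with edgeR adjusted p from 0.0514 without water 1 to 0.159 without dsGFP 2. Without dsGFP 3, water 2 and uninjected 3 together, a choice made after the data were seen, CPR44 (adjusted p = 0.0259) and CPR47 (adjusted p = 0.0474) fell by edgeR's test in 2 libraries per group. CPR22 did not pass there (adjusted p = 0.0822), and CPR23 had a log2 fold change of 1.31 (SE 0.27, edgeR adjusted p = 0.0428). This setting called 413 of 11668 genes. The 3 libraries were picked by the family sum. Within their groups CPR23 was lowest and CPR47 highest in each of them. Leaving them out narrowed the spread of both genes by choice, so these p-values are a description and no test.

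CPR49 and CPR53 did not pass. CPR49 differed by -0.53 (SE 0.14, edgeR adjusted p = 0.0556) with no overlap between dsGFP and uninjected libraries. CPR53, at 2.86, 1.81 and 2.51 CPM in dsGFP and 3.73, 4.20 and 3.11 CPM in uninjected pools, differed by -0.62 (SE 0.22, edgeR adjusted p = 0.158), again without overlap. In all, 5 of the 24 members lay lower without overlap (13.1% of all genes) and 1, CPR14, higher (8.79%). Among the 5, CPR22 passed the filter only through its water and uninjected libraries.

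For the members with the large swings the comparison had little resolution. The fitted log2 fold change of CPR1 between dsGFP and uninjected pupae was 1.47, with a 95% interval from -1.70 to 4.64. It was 2.20 for CPR37 (-1.97 to 6.38), 2.21 for CPR59 (-2.60 to 7.02) and 2.18 for CPR15 (-2.38 to 6.75). The distance from the estimate to either end of such an interval (not adjusted for many tests) had a median of 1.25 over the 24 members and 0.33 over all genes. The whole interval lay within 2-fold for 3 members, against 77.5% of all genes. Differences of several fold in CPR1, CPR37, CPR59 or CPR15 were therefore not detectable with 3 pools per group.

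**Figure D5:**
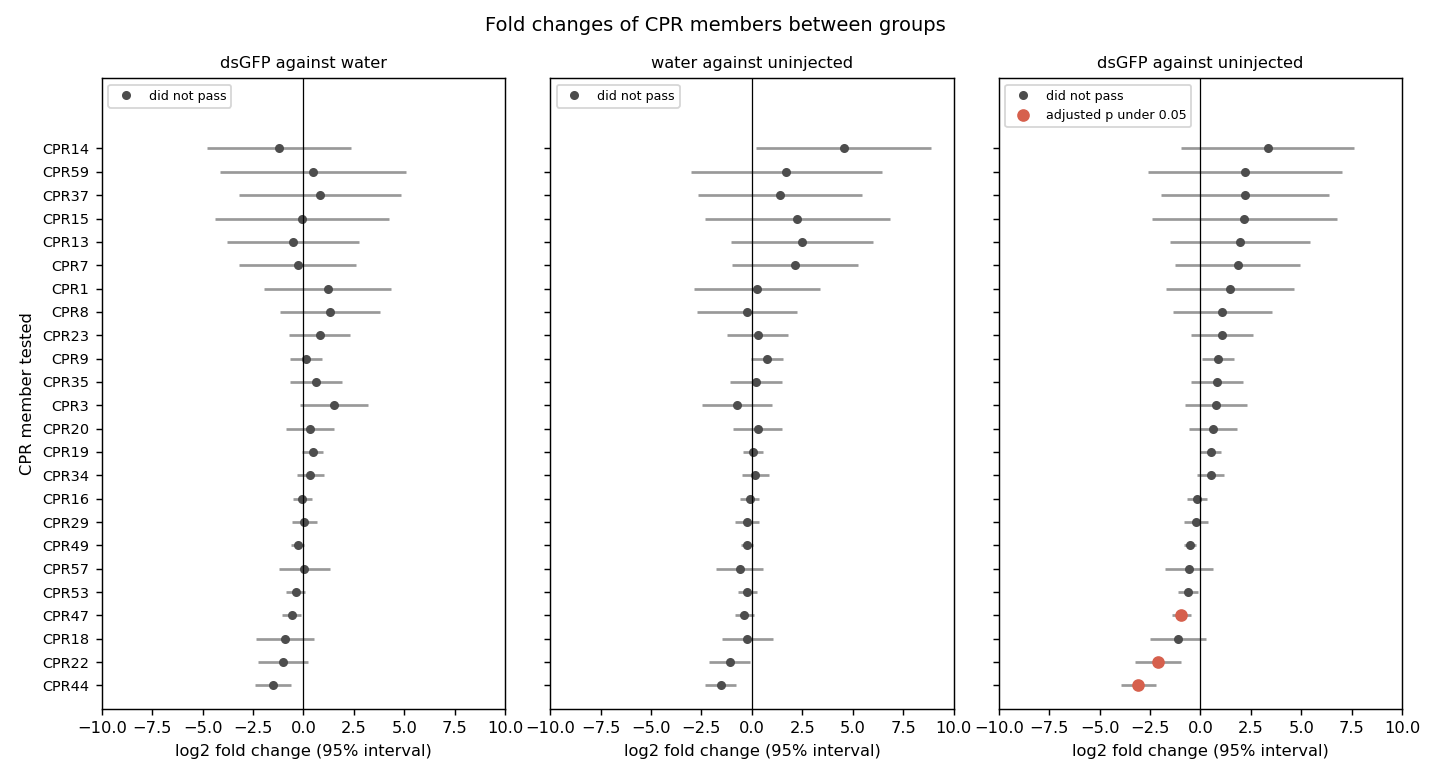
Fitted log2 fold change of each tested CPR member in the 3 comparisons (points), with unadjusted 95% intervals (lines) and members past the threshold in red. CPR44, CPR22 and CPR47 pass between dsGFP and uninjected pupae, and the intervals of CPR14, CPR59, CPR37, CPR15, CPR13, CPR7 and CPR1 span several units.

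The comparison of dsGFP with water, which holds the injection constant, gave 0 called members by edgeR, as for 0% of all genes, and 0 by DESeq2. Of all 11665 genes DESeq2 called 6. An unadjusted p under 0.05 was met by 2 of the 24 members (6.09% of all genes). These were CPR44, with a log2 fold change of -1.52 (SE 0.40, edgeR adjusted p = 0.702), and CPR47, with -0.58 (SE 0.22, edgeR adjusted p = 0.750). The next by p were CPR49 at -0.29 (SE 0.14), CPR3 at 1.51 (SE 0.76) and CPR19 at 0.45 (SE 0.23). CPR3 had 9 to 16 counts in each dsGFP library and 1 to 7 in each water library, and 43.4% of its strand-specific sum was missing from the count without strand. Without overlap 4 members were lower with dsGFP (7.57% of all genes) and 2 higher (4.77%). CPR3, among the higher, reached the filter's 0.271 CPM in 2 dsGFP, 0 water and 1 uninjected library. CPR22, among the lower, reached it in 0 dsGFP, 2 water and 3 uninjected libraries. Both passed the filter through groups where they were high, so their lack of overlap is no support for a difference. The median log2 fold change was 0.04 over the members and 0.01 over all genes, and the interval lay within 2-fold for 6 members (83.1% of all genes).

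Between water-injected and uninjected pupae edgeR called 0 members, against 1 gene of all tested (0.00857%), and 3 of 24 members had an unadjusted p under 0.05 (5.68% of all genes). DESeq2 called 1 member, CPR44, and 46 of all 11665 genes tested. By edgeR CPR44 differed by -1.56 on the log2 scale (SE 0.35, adjusted p = 0.475), CPR22 by -1.11 (SE 0.46, adjusted p = 0.819) and CPR14 by 4.55 (SE 1.80, adjusted p = 0.840). The value of CPR14 rested on water 1, at 17.7 CPM, with the other water libraries at 0.346 and 0.979 CPM. CPR9 followed at 0.75 (SE 0.36) and CPR47 at -0.38 (SE 0.21). CPR44 was the 1 member without overlap between these groups, lower with water, as were 5.79% of all genes, and 0 members were higher without overlap (2.85% of all genes). Both injected groups were set against the same uninjected libraries, so the values of CPR44 in these comparisons are not independent.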

How the data were processed

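Libraries of poly(A)-enriched RNA were read in pairs of 150 bp, per the labels' protocols. The authors deposited 1 file of raw counts of read pairs per gene for each of 9 libraries. The submitters' processing notes name STAR 2.6.1b; the genome build and annotation were not named there or in the labels, so RefSeq's table served only for names and gene order. The column that ignores strand was used. The strand columns were near equal (49.95 to 50.13% in the first), so antisense neighbours cannot be told apart, and multimapped pairs are not counted, so near-identical genes may be undercounted. Of 15430 rows, 12 held no gene name (0.0518 to 0.0608% of counts) and were left out.

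Genes were kept by filterByExpr (minimum count 10, total 15), scaled by TMM and tested in a single fit of all 9 libraries with edgeR 4.0.16 (glmQLFit with robust estimation, R 4.3.3), with Benjamini-Hochberg adjustment over all 11665 genes; no set was tested. The fit was also run on simulated counts drawn separately for each gene. These held no swings shared between genes, so that run does not bear on such swings. SDs and subsets used log2 CPM with prior count 2. No library of a group duplicated another. The alternatives were DESeq2 1.42.0, DESeq2 size factors, no filter, the 2 groups alone, a replicate block and each library left out.

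The members and gene lists were chosen with earlier results of these data known. Named were called members, the 5 of smallest p per comparison, the 6 with the highest CPM, the 6 with the largest within-group SD, the 6 with the lowest r with the others, and CPR15, CPR22, CPR37, CPR44 and CPR59; values of other members are given to account for all of them.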

Additional observations from a re-analysis of the deposited data

How the results depend on the processing

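Between dsGFP and uninjected pupae 3 members were called, and 1 when only the 2 groups were fitted (CPR44). Over all genes these fits called 531 and 255. Leaving out single libraries gave 1 to 4 called members: 1 without dsGFP 1, dsGFP 2, water 3, uninjected 2 or uninjected 3 (CPR44 each time) and 4 without uninjected 1, where CPR49 also passed. CPR49 passed too with no filter and by DESeq2, which called 544 and 939 of all genes. The F test among the 3 groups called 1 member (238 of all genes), 3 by DESeq2 (682) and 0 without dsGFP 3, water 2 and uninjected 3 together (11). With single libraries left out it called 0 to 3 members and 0 to 384 of all genes. Against water the uninjected pools gave 0 called members, and 1 by DESeq2 (CPR44), which called 46 of all genes there. The dsGFP and water pools gave 0 called members under every alternative run, where DESeq2 called 6 of all genes and the other settings 0. Same-numbered libraries showed no steady likeness. They deviated together at r = -0.33 to 0.43 over 9 pairs, 2 of which exceeded 0.1, and 0 libraries matched their own number best in both other groups. These values cannot show whether same-numbered pools were handled together. With the replicate block 4 members were called between dsGFP and uninjected pupae, CPR9 being added (log2 fold change 0.89, adjusted p = 0.0351), 1 by the F test and 0 in the other comparisons. Over all genes this block gave 539 calls between dsGFP and uninjected pupae and 216 by the F test. CPR57 differed by -0.56 between dsGFP and uninjected pupae, ran from -0.93 to 0.00371 with single libraries left out, the highest without uninjected 3, and was 0.0829 without dsGFP 3, water 2 and uninjected 3 together; it passed in none of these, and the cause was not tested. The median within-group SD of 0.73 stayed between 0.60 and 0.79 under the alternatives run.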

Other observations

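Uninjected 2 stood apart for a few cuticle genes that were not lowest in dsGFP 3, water 2 and uninjected 3 together. Osi8, of the insect-specific Osiris family, was at 75.6 CPM there and at 0.362 to 2.31 CPM in the other libraries, and Osi7 was at 51.7 CPM against 0.515 to 1.15 CPM. The apidermin gene apd-3 was at 8.91 CPM in uninjected 2 and at 1.64 to 3.08 CPM elsewhere, and apd-1 at 5.44 CPM against 0.293 to 2.37 CPM. CPR22 also had its highest value there, 1.46 CPM, and its second highest was 0.602 CPM in uninjected 3. Without uninjected 2 the log2 fold change of CPR22 between dsGFP and uninjected pupae was -1.43 (adjusted p = 0.139 by edgeR). These genes were singled out after their values were seen.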
